A study of Caenorhabditis elegans with 33 samples.

Results

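The metallothionein genes mtl-1 and mtl-2, the ferritin genes ftn-1 and ftn-2 and the metal transporter gene smf-3 were followed across 12 groups of whole Caenorhabditis elegans. They were chosen by gene name, and all 5 were among the 17907 genes of the deposited tables and passed the filter on low counts, which left 17354 genes. The animals were hermaphrodites at adult day 2, kept from the L4 stage on 5-fluorodeoxyuridine, a drug that blocks progeny, and fed HT115(DE3) bacteria. Every group was 1 of 4 strains on 1 of 3 bacterial strains. The strains were the double mutant eat-2(ad465);mxl-2(tm1516), eat-2(ad465), mxl-2(tm1516) and the wild type N2. The bacteria carried double-stranded RNA against daf-16, against pha-4, or the empty vector L4440 (EV). eat-2 encodes a subunit of a pharyngeal acetylcholine receptor, and its mutants pump and feed slowly, which makes them a genetic model of dietary restriction. mxl-2 encodes a Max-like partner of the Myc-family factor MML-1, daf-16 encodes the FOXO factor of insulin signalling, and pha-4 encodes a FOXA factor that specifies the pharynx. There were 33 libraries of poly(A) RNA, 3 in each group and 2 in each eat-2 group. The labels do not say that libraries of a group came from separate cultures, so that the tests below measure the spread between libraries.

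Metallothioneins are small cysteine-rich proteins that bind zinc, copper and cadmium, and in C. elegans both genes are switched on by heavy metals in the intestine, while mtl-1 is also a standard readout of DAF-16 activity. Ferritin forms a hollow shell that stores iron. In C. elegans, ftn-1 is expressed mainly in the intestine and ftn-2 more widely, and when iron is scarce the hypoxia factor HIF-1 represses the ferritin genes and raises smf-3, whose product is a transporter of the NRAMP family that takes up iron and manganese at the gut surface. In whole animals, fewer cells of a type and less RNA per cell cannot be told apart.

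The genes lie apart from each other in the WBcel235 annotation. mtl-1 (WBGene00003473) is at chrV:6691371-6691863 on the minus strand with 2 exons, mtl-2 (WBGene00003474) at chrV:14018270-14018673 on the minus strand with 2 exons, and ftn-1 (WBGene00001500) at chrV:7546468-7547579 on the minus strand with 3 exons. ftn-2 (WBGene00001501) is at chrI:3680180-3680927 on the minus strand with 3 exons, and smf-3 (WBGene00004878) at chrIV:2618869-2625503 on the plus strand with 12 merged exon blocks. All are protein-coding, and no exon base of any of them lies in an exon of another annotated gene.

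Per kilobase of transcript, the 5 genes ran at very different levels. Over the 33 libraries, ftn-2 had 367 to 899 TPM, the share of all transcripts after correction for their length, with a median of 500.4 TPM, and mtl-2 had 181 to 1838 TPM, with a median of 561 TPM. mtl-1 had 1.57 to 1551 TPM with a median of 127 TPM, ftn-1 had 0.19 to 92.3 TPM with a median of 20.0 TPM, and smf-3 had 1.16 to 9.12 TPM with a median of 4.10 TPM. In CPM, the count scaled to library size with TMM factors, the highest library exceeded the lowest 820-fold for mtl-1, 339-fold for ftn-1, 10.2-fold for smf-3, 8.94-fold for mtl-2 and 2.47-fold for ftn-2. ftn-2 thus spanned the narrowest range, and mtl-1 and ftn-1 the widest. Within groups, the pooled SD of log2 CPM was 1.15 for ftn-1, 0.90 for mtl-1, 0.65 for smf-3, 0.37 for mtl-2 and 0.29 for ftn-2, against a median of 0.56 over all genes tested, so that ftn-1 differed most between libraries of the same group.

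**Figure D1:**
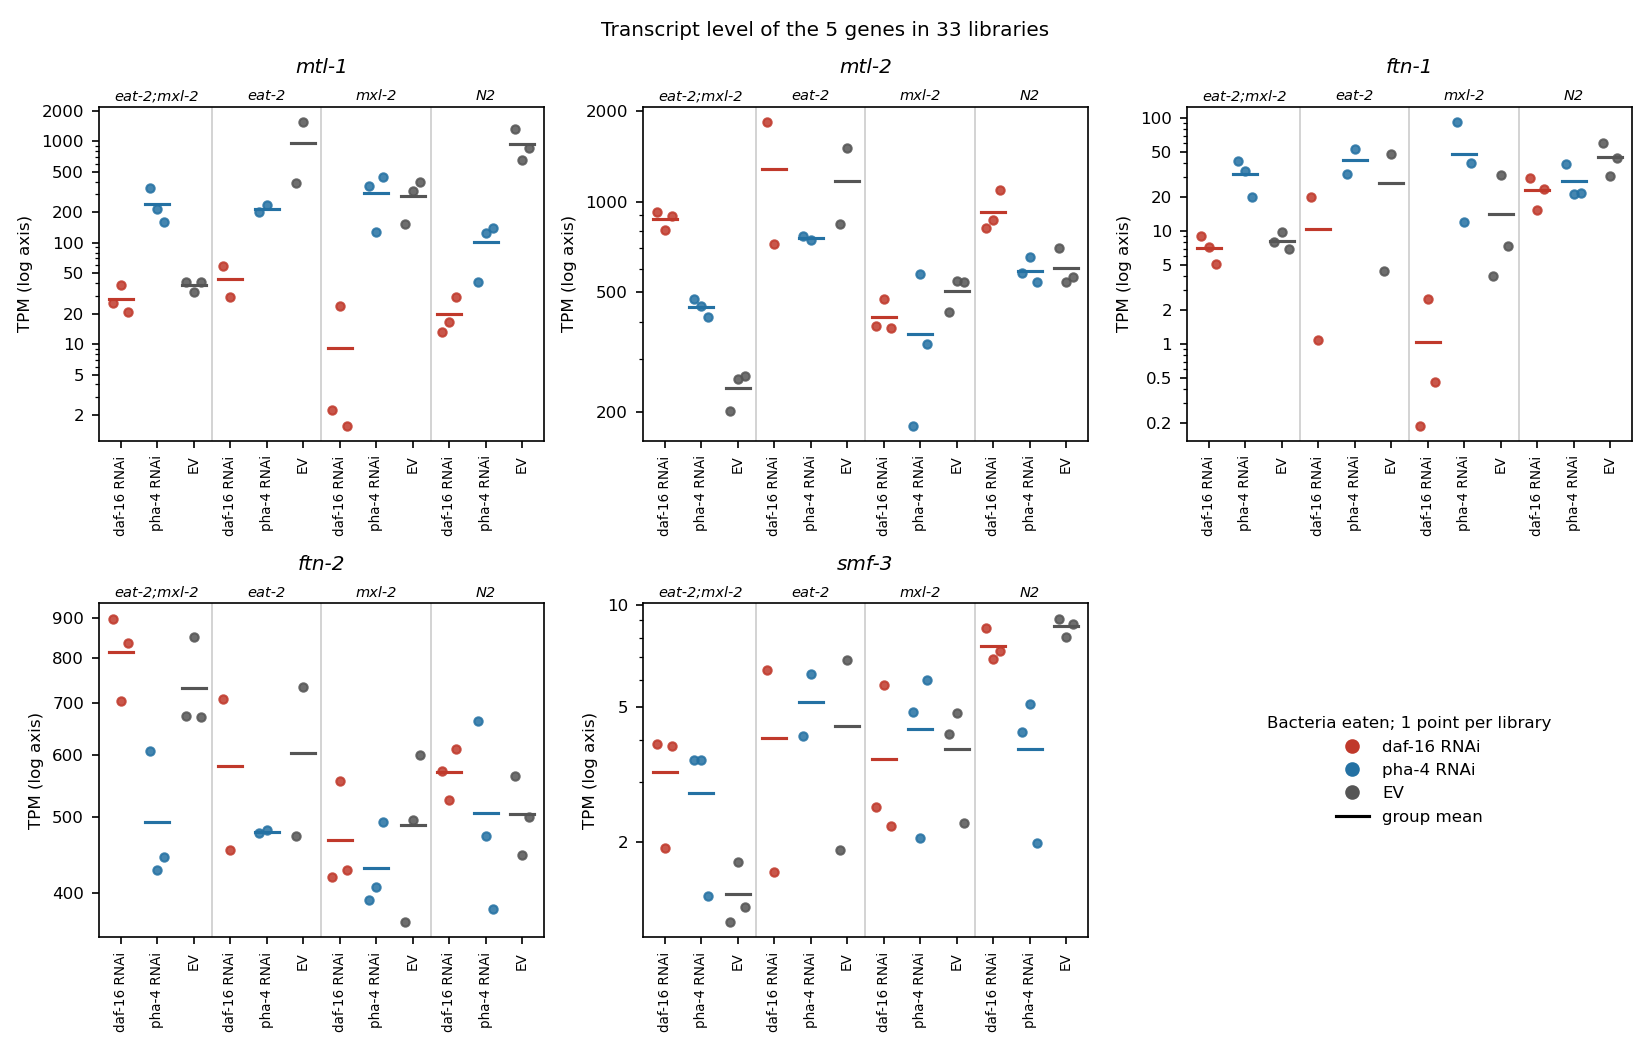
TPM (log axis) of each gene in every library, by strain and bacteria; points are libraries and bars are group means. mtl-1 lies at 1.57 to 59.3 TPM in the 11 libraries on daf-16 RNAi, and mtl-2 is lowest on average in the double mutant labelled EV, at 241 TPM.

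Library totals ran from 20199019 to 31483909 counts. The daf-16 transcript averaged 43.9 to 99.2 CPM in the 4 groups on daf-16 RNAi, against 80.2 to 186 CPM in the same strains on EV, and was called lower in the double mutant (edgeR adjusted p = 0.0170). In eat-2 it overlapped, with 32.4 and 69.6 CPM on daf-16 RNAi and 115.5 and 44.9 CPM on EV. In the other strains it did not. The pha-4 transcript averaged 5.07 ± 0.697 CPM on pha-4 RNAi and 14.01 ± 4.34 CPM on EV in N2 (SD, n = 3 each), but ran against the labels in the double mutant, with 10.4 ± 2.54 CPM in the libraries labelled pha-4 RNAi and 3.83 ± 0.496 CPM in those labelled EV (SD, n = 3 each; edgeR adjusted p = 0.0490). The libraries of the double mutant are numbered 49 to 57 and all others 1 to 27, so that strain and any batch that goes with these numbers cannot be told apart. Since the pha-4 transcript ran against the labels there, every comparison with these groups was also computed with the double mutant's libraries labelled EV and pha-4 RNAi in each other's place, called the exchanged labels below. This alternative was added after the values were seen, and which labels are right was not tested. Some libraries of a group stood apart. Summed TPM of the 10 intestinal markers was 1487 and 5110 in the 2 eat-2 libraries on daf-16 RNAi and 1141 and 4747 in those on EV, and that of the 10 oocyte markers 555 and 3772 against 557 and 3113, with the high library in both lists being the same. In mxl-2, the 31 sperm genes of the msp family summed to 9551, 34.6 and 10716 TPM on daf-16 RNAi and to 10580, 7619 and 56.6 TPM on EV. No intestinal or oocyte marker was at 0 in any library, and the lowest pharyngeal marker, ceh-22, was at 0.09 TPM. asp-1 and cpr-6 had the highest medians of the intestinal markers, 2980 and 683 TPM, so that the intestinal sum leans on them.

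The level of mtl-1 fell steeply on daf-16 RNAi in N2 and mxl-2, had a fold change of nearly that size in eat-2 that did not pass the test, and a value near 0 in the double mutant as its libraries are labelled, though not with exchanged labels. In N2, mtl-1 had 3.96, 5.33 and 9.58 CPM on daf-16 RNAi, against 428, 206 and 257 CPM on EV. Each library on daf-16 RNAi lay far below every EV library. The log2 fold change was -5.56 ± 0.81 (SE; 95% interval -7.23 to -3.90; edgeR quasi-likelihood test, adjusted p = 0.000905), and mtl-1 was the only one of the 5 genes called in this comparison, in which 0.248% of all genes tested were called. The intestinal markers summed to 3964 to 4861 TPM on daf-16 RNAi and 2872 to 3832 TPM on EV in N2, and their part in the result was not tested.

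In mxl-2, mtl-1 had 0.788, 7.01 and 0.522 CPM on daf-16 RNAi, from 20, 173 and 13 reads, against 47.7, 95.3 and 142 CPM on EV. Replicate 2 on daf-16 RNAi stood well above the other two, yet below all EV libraries. The log2 fold change was -5.10 ± 0.80 (edgeR adjusted p = 0.00415), again the only call among the 5 genes, where 0.127% of all genes were called. Replicate 2 was also the library with sperm genes at 34.6 TPM and pharyngeal markers at 2.65 TPM, against 35.4 and 56.3 TPM in replicates 1 and 3, and their part in the result was not tested. Without it the log2 fold change was -7.17 (edgeR adjusted p = 5.67e-05). Without replicate 1 or replicate 3 on daf-16 RNAi it was -4.66 and -4.61, with edgeR adjusted p = 0.0540 and 0.0501. The call was also lost without the double mutant's libraries (-5.08; edgeR adjusted p = 0.0744) and in a fit to only the 6 libraries compared (-5.10; 0.746).

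In eat-2, mtl-1 had 14.9 and 8.96 CPM on daf-16 RNAi, against 137 and 427 CPM on EV. The groups did not overlap, but with 2 libraries each the log2 fold change of -4.56 ± 0.94 did not pass (edgeR adjusted p = 0.258). Throughout, shares of all genes are those of the edgeR adjusted test, and none is given for counts by other rules unless stated. By the edgeR test 0 of the 5 genes were called in eat-2, where 0.0115% of all genes were. Of the 5, 1 passed at an unadjusted p under 0.05, 1 (mtl-1) was called by DESeq2 and 0 by limma. A fit to these 4 libraries with a replicate block in which the EV numbers were crossed, chosen after seeing the data, called 2 of the 5 genes, among them mtl-1 (-4.39; edgeR adjusted p = 1.12e-05), and 0 with the numbers as given or without a block. The crossed block was picked from these same libraries, so that its calls cannot stand as a test of the mtl-1 response. The difference between this response and that of N2 was 1.01 ± 1.06 on the log2 scale (95% interval -1.18 to 3.19), and that between mxl-2 and N2 was 0.46 ± 0.96 (95% interval -1.52 to 2.45).

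In the double mutant, the mtl-1 result turned on the labels. Its level was 7.41, 13.9 and 6.15 CPM on daf-16 RNAi, against 10.51, 8.56 and 11.1 CPM in the libraries labelled EV. These groups overlapped, and the log2 fold change was -0.14 ± 0.67 (95% interval -1.52 to 1.25; edgeR adjusted p = 0.915). The libraries labelled pha-4 RNAi had 89.7, 55.4 and 43.8 CPM, all above those on daf-16 RNAi. With exchanged labels the log2 fold change was therefore -2.78 ± 0.71, and it was called (edgeR adjusted p = 0.0186). As labelled, the response to daf-16 RNAi differed between the double mutant and N2 by 5.43 ± 1.01 on the log2 scale (95% interval 3.35 to 7.50; edgeR adjusted p = 0.0107), with 0.651% of all genes called in this difference of differences. Leaving out replicate 1 of N2 on daf-16 RNAi, or any 1 of the 3 double-mutant libraries labelled EV, moved that adjusted p to between 0.0539 and 0.0583. With exchanged labels the difference was 2.78 ± 0.96, which did not pass (edgeR adjusted p = 0.139), and 0 genes of all tested were called.

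In the double mutant, mtl-2, the other metallothionein gene, was higher on daf-16 RNAi than in the libraries labelled EV. It had 210, 235.1 and 215 CPM on daf-16 RNAi, against 41.2, 54.1 and 57.4 CPM in the libraries labelled EV. All libraries on daf-16 RNAi were above all labelled EV, and the log2 fold change was 2.11 ± 0.30 (95% interval 1.499 to 2.73; edgeR adjusted p = 0.000165). In this comparison 9.55% of all genes were called, and mtl-2 was the only one of the 5 called. With exchanged labels the log2 fold change was 1.21 ± 0.29 (edgeR adjusted p = 0.0141), so that the rise was called either way but was smaller. mtl-1 and ftn-2 were then called too, where 10.5% of all genes were called. Within the double mutant the summed level of the 31 sperm genes also differed by group, with 407 to 573 TPM on daf-16 RNAi and 4087 to 5673 TPM in libraries labelled EV. mtl-2 was still called with sperm transcripts as a covariate. Since these groups did not overlap in sperm level, that fit cannot separate sperm level from the bacteria. Intestinal markers summed to 4268 to 6712 TPM on daf-16 RNAi and 3593 to 3750 TPM in libraries labelled EV, without overlap, and oocyte markers to 759 to 1576 TPM and 1425 to 2011 TPM in the same groups. The part of these markers in the rise of mtl-2 was not tested. In N2, mtl-2 had 194, 233 and 282 CPM on daf-16 RNAi, against 183, 138 and 133 CPM on EV. These groups did not overlap either, but the log2 fold change of 0.64 ± 0.29 did not pass (edgeR adjusted p = 1). In eat-2 and mxl-2 it was -0.04 ± 0.35 and -0.32 ± 0.29.

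**Figure D2:**
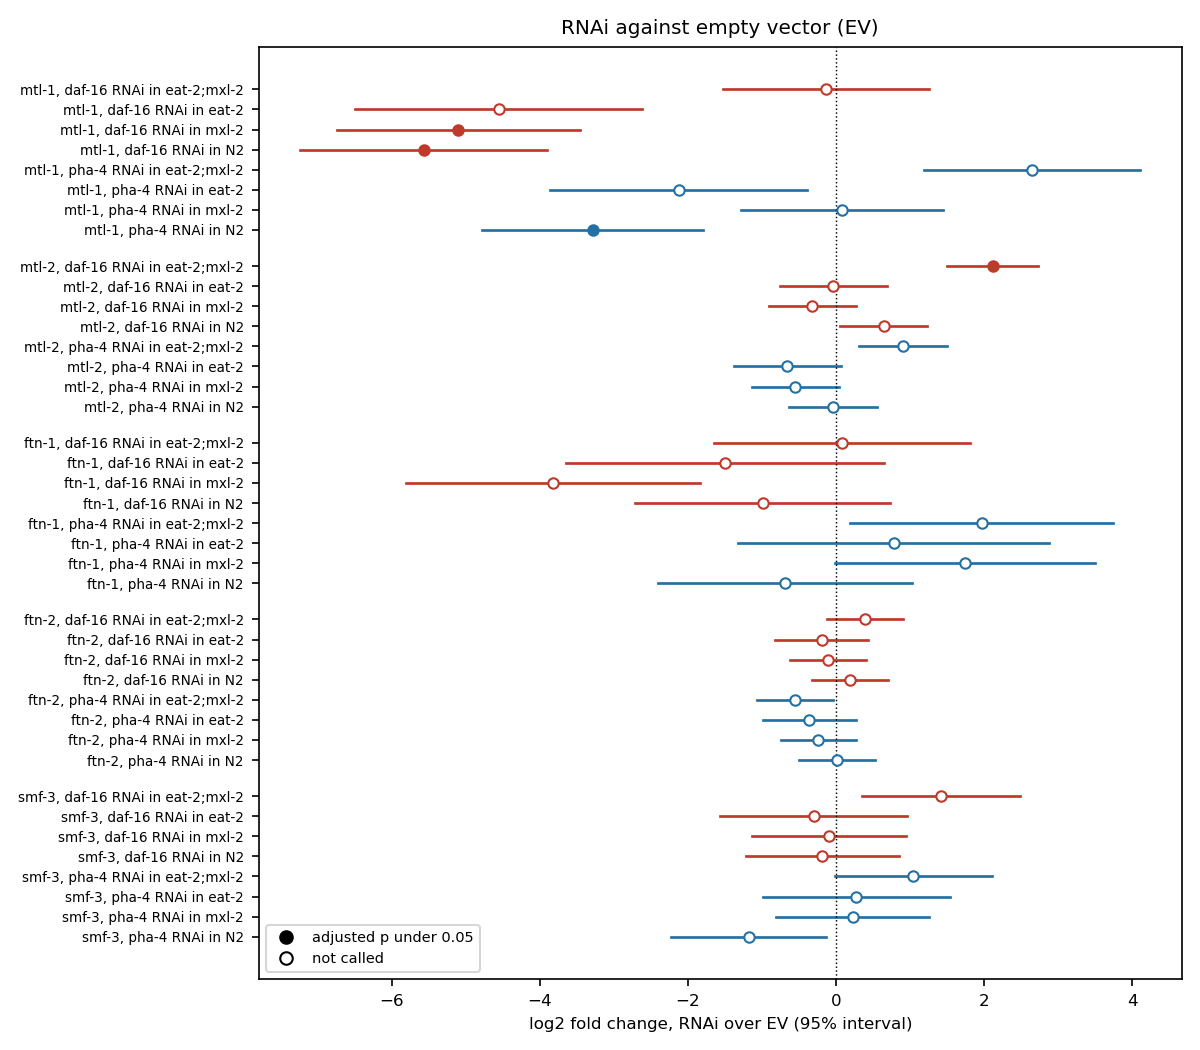
Log2 fold change of each gene on daf-16 RNAi (red) and pha-4 RNAi (blue) over EV within each strain, with 95% intervals from the edgeR fit; filled points passed an adjusted p under 0.05. mtl-1 fell by 5.56 in N2 and by 5.10 in mxl-2 on daf-16 RNAi, while its value in the double mutant, as labelled, was -0.14.

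ftn-1, the intestinal ferritin, was not called on daf-16 RNAi in any strain by the edgeR test. The widest gap was in mxl-2, where ftn-1 had 0.158, 1.46 and 0.281 CPM on daf-16 RNAi, from 4, 36 and 7 reads, against 2.54, 18.9 and 5.36 CPM on EV. The libraries on daf-16 RNAi were all below those on EV, and the log2 fold change was -3.82 ± 0.96 (edgeR adjusted p = 0.0832). DESeq2 gave an adjusted p of 0.00126, and without replicate 2 on daf-16 RNAi the edgeR adjusted p was 0.0106 at a log2 fold change of -5.33. In N2, ftn-1 averaged 14.3 ± 3.70 CPM on daf-16 RNAi and 28.4 ± 10.3 CPM on EV (SD, n = 3 each), which gave a log2 fold change of -0.99 ± 0.84 (95% interval -2.71 to 0.73). In eat-2 the value was -1.50 ± 1.04, and it was 0.79 when EV replicate 2 was left out.

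ftn-2, the more widely expressed ferritin, had log2 fold changes on daf-16 RNAi from -0.19 in eat-2 to 0.39 in the double mutant, where exchanged labels gave 0.95 ± 0.25 (edgeR adjusted p = 0.0206). The iron and manganese transporter gene smf-3 had log2 fold changes from -0.30 to -0.10 in eat-2, N2 and mxl-2. In the double mutant smf-3 had 6.97, 4.35 and 7.32 CPM on daf-16 RNAi, against 1.85, 2.99 and 2.13 CPM in the libraries labelled EV. These did not overlap, and the log2 fold change of 1.42 ± 0.52 did not pass (edgeR adjusted p = 0.0717). A fit to the 6 libraries of that comparison alone gave 1.403 with an edgeR adjusted p of 0.00205, and exchanged labels gave 0.38 ± 0.50 (edgeR adjusted p = 0.662).

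In N2, mtl-1 was lower on pha-4 RNAi than on EV. It had 13.8, 39.4 and 38.0 CPM on pha-4 RNAi, against 428, 206 and 257 CPM on EV, with no overlap. The log2 fold change was -3.29 ± 0.72 (95% interval -4.78 to -1.80; edgeR adjusted p = 0.0437), and mtl-1 was the only one of the 5 genes called, where 0.323% of all genes were. This call was lost when any 1 of the 6 libraries was left out (edgeR adjusted p = 0.0903 to 0.209, log2 fold change -3.52 to -2.93) and without the double mutant's libraries (edgeR adjusted p = 0.212). smf-3 had 9.10, 10.48 and 3.53 CPM on pha-4 RNAi in N2, against 18.8, 16.6 and 17 CPM on EV. Replicate 3 on pha-4 RNAi was the lowest, the groups did not overlap, and the log2 fold change of -1.18 ± 0.51 did not pass (edgeR adjusted p = 0.404). In that library the intestinal markers summed to 1898 TPM and the sperm genes to 877 TPM, each the lowest among the N2 libraries, and their part in the result was not tested.

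In the double mutant, as labelled, mtl-1 ran the other way. It had 89.7, 55.4 and 43.8 CPM in the libraries labelled pha-4 RNAi, against 10.51, 8.56 and 11.1 CPM in those labelled EV. The groups did not overlap, and the log2 fold change of 2.65 ± 0.71 missed the threshold (edgeR adjusted p = 0.0572). The pha-4 transcript was itself higher in the libraries labelled pha-4 RNAi here, so that no direction of an RNAi effect can be read from these labels. By the edgeR test 0 of the 5 genes were called, where 1.49% of all genes were. At an unadjusted p under 0.05 there were 4, all but smf-3 (edgeR unadjusted p = 0.0527). Such values were common here, since 17.2% of all genes had a smaller p than smf-3. DESeq2 and limma each called 1, mtl-1. mtl-2 had 99.0, 93.1 and 93.0 CPM in the libraries labelled pha-4 RNAi, and ftn-1 had 21.8, 17.9 and 11.1 CPM, against 41.2, 54.1 and 57.4 CPM for mtl-2 and 4.02, 5.18 and 3.76 CPM for ftn-1 in those labelled EV. Neither gene overlapped between the labels, and their log2 fold changes were 0.90 ± 0.29 and 1.97 ± 0.86 (edgeR adjusted p = 0.122 and 0.259). A fit to the 6 libraries alone called all 5 genes, with mtl-1, mtl-2, ftn-1 and smf-3 higher and ftn-2 lower in the libraries labelled pha-4 RNAi, but it called 7309 of all genes, against 259 in the fit to all libraries. The difference between this response of mtl-1 and that in N2 was 5.93 ± 1.01 on the log2 scale (95% interval 3.85 to 8.02; edgeR adjusted p = 0.00352), where 1.58% of all genes were called. With exchanged labels it was 0.64 ± 0.94 (edgeR adjusted p = 0.722). In the 4 differences of response between a single mutant and N2, the edgeR test called 0 of the 5 genes. The share of all genes called was 0.00576% for daf-16 RNAi in mxl-2 and for pha-4 RNAi in eat-2, and 0% for daf-16 RNAi in eat-2 and for pha-4 RNAi in mxl-2. Without adjustment 3 values had p under 0.05, and DESeq2 and limma called 0.

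In mxl-2 and eat-2 the edgeR test called 0 of the 5 genes on pha-4 RNAi, where 0.887% and 1.17% of all genes were called. Without adjustment 0 and 1 of them had p under 0.05, and DESeq2 and limma called 0 in each. The pha-4 transcript itself overlapped between pha-4 RNAi and EV in both strains. In mxl-2, mtl-1 had 105, 36.2 and 161 CPM on pha-4 RNAi, against 47.7, 95.3 and 142 CPM on EV, and the groups overlapped throughout. Its log2 fold change was 0.08 ± 0.66 (95% interval -1.28 to 1.45). ftn-1 had 53.4, 6.88 and 29.5 CPM on pha-4 RNAi in mxl-2, against 2.54, 18.9 and 5.36 CPM on EV. Each group spread widely, and the log2 fold change was 1.74 ± 0.85 (edgeR adjusted p = 0.487). In eat-2, mtl-1 had 58.1 and 71.0 CPM on pha-4 RNAi, against 137 and 427 CPM on EV, a log2 fold change of -2.13 ± 0.84 without overlap (edgeR adjusted p = 0.200).

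Among libraries labelled EV, the double mutant had the lowest mean level of 4 of the 5 genes among the 4 strains, all but ftn-2, but most of its calls below rested on those labels. Its mtl-1 level of 10.51, 8.56 and 11.1 CPM stood against 137 and 427 CPM in eat-2, 47.7, 95.3 and 142 CPM in mxl-2, and 428, 206 and 257 CPM in N2. It lay below every library of the other strains on EV. The log2 fold change was -4.88 ± 0.78 over N2 (edgeR adjusted p = 0.000220), -4.81 ± 0.80 over eat-2 (0.000577) and -3.24 ± 0.72 over mxl-2 (0.00613). With exchanged labels it was -2.24 ± 0.69 (edgeR adjusted p = 0.0511), -2.16 ± 0.74 (0.0700) and -0.59 ± 0.66 (0.728) over the same strains, and the 89.7, 55.4 and 43.8 CPM then in place overlapped with mxl-2. As labelled, the gap to N2 of 4.88 was of like size to the 5.56 by which daf-16 RNAi lowered mtl-1 in N2, and both comparisons share the N2 libraries on EV.

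mtl-2 in the double mutant labelled EV had 41.2, 54.1 and 57.4 CPM, against 233 and 334 CPM in eat-2, 107, 129 and 155 CPM in mxl-2, and 183, 138 and 133 CPM in N2. Here too the double mutant was below every other EV library, and eat-2 above them. For mtl-2 the log2 fold change was -1.57 ± 0.29 over N2 (edgeR adjusted p = 0.00102), -2.48 ± 0.32 over eat-2 (5.00e-05) and -1.36 ± 0.29 over mxl-2 (0.00446). With exchanged labels it was -0.67 ± 0.29 (edgeR adjusted p = 0.158), -1.58 ± 0.32 (0.00423) and -0.46 ± 0.29 (0.467), so that the call over eat-2 alone was left. The gap between eat-2 and N2, 0.90 ± 0.32, did not pass (edgeR adjusted p = 0.125). The effect of the eat-2 mutation on mtl-2 differed with the state of mxl-2 by -2.26 ± 0.43 on the log2 scale (95% interval -3.14 to -1.38; edgeR adjusted p = 0.00816), where 1.27% of all genes were called. With exchanged labels this difference was -1.36 ± 0.43, which did not pass (edgeR adjusted p = 0.200).

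smf-3 had 1.85, 2.99 and 2.13 CPM in the double mutant labelled EV, against 4.34 and 12.1 CPM in eat-2, 8.27, 9.19 and 5.10 CPM in mxl-2, and 18.8, 16.6 and 17 CPM in N2. The order was double mutant, then eat-2 and mxl-2, which overlapped, then N2, which lay above all others. For smf-3 the log2 fold change was -2.91 ± 0.54 over N2 (edgeR adjusted p = 0.000998), -1.83 ± 0.56 over eat-2 (0.0272) and -1.69 ± 0.52 over mxl-2 (0.0445). The last pair rested on single libraries, since without eat-2 EV replicate 2 the value over eat-2 was -0.98 (edgeR adjusted p = 0.304) and the value over mxl-2 lost its call in 5 of 6 such fits. limma on log2(TPM + 1) called neither (adjusted p = 0.156 over eat-2 and 0.154 over mxl-2). With exchanged labels the values were -1.86 ± 0.52 over N2, still called (edgeR adjusted p = 0.0311), -0.78 ± 0.56 over eat-2 (0.360) and -0.65 ± 0.51 over mxl-2 (0.565). The single mutants were lower than N2 by -1.08 ± 0.58 for eat-2 and -1.21 ± 0.51 for mxl-2, neither called (edgeR adjusted p = 0.284 and 0.316).

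ftn-1 had 4.02, 5.18 and 3.76 CPM in the double mutant labelled EV, against 3.06 and 27.02 CPM in eat-2, 2.54, 18.9 and 5.36 CPM in mxl-2, and 39.5, 19.1 and 26.5 CPM in N2. The double mutant overlapped with both single mutants and lay below N2. Over N2 its log2 fold change was -2.71 ± 0.88 (edgeR adjusted p = 0.0450), a call lost with any 1 of the 6 libraries left out (0.0602 to 0.151), without the filter (0.0502), with a replicate block (0.0536) and with limma on log2(TPM + 1) or log2(TPM + 0.1) (0.0576 and 0.0946). With exchanged labels it was -0.75 ± 0.83 (edgeR adjusted p = 0.606). Over eat-2 and mxl-2 it was -1.80 ± 0.92 and -1.05 ± 0.84, neither called. ftn-2 did not follow ftn-1, with 354, 464 and 378 CPM in the double mutant, against 378, 293 and 310 CPM in N2, and a log2 fold change of 0.29 ± 0.25 (95% interval -0.23 to 0.80).

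In all, 4 of the 5 genes were called lower in the double mutant over N2, where 12.1% of all genes were called and 7.15% called lower. Over eat-2 it was 3 of 5, where 18.4% were called and 8.89% called lower. Over mxl-2 it was 3 of 5, where 7.86% were called and 4.25% called lower. With exchanged labels 1, 1 and 0 of the 5 were called in these comparisons, where 6.64%, 7.85% and 2.31% of all genes were. The pha-4 transcript of the libraries labelled EV was called lower in the double mutant than in N2 as well, by -1.87 on the log2 scale (edgeR adjusted p = 0.00200). Intestinal markers summed to 3593 to 3750 TPM in the double mutant and 2872 to 3832 TPM in N2. Among the single mutants, the edgeR test called 0 of 5 genes in eat-2 over N2, where 0.789% of all genes were called, and 0 of 5 in mxl-2 over N2, where 0.0288% were. At an unadjusted p under 0.05 there were 1 and 2, DESeq2 called 1 (mtl-2) and 0, and limma called 0 in both. mtl-1 averaged 282 ± 206 CPM in eat-2 (SD, n = 2) and 297 ± 116 CPM in N2 (SD, n = 3), and the log2 fold change was -0.08 ± 0.74, and mxl-2 lay below N2 by -1.64 ± 0.68 (edgeR adjusted p = 0.310).

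**Figure D3:**
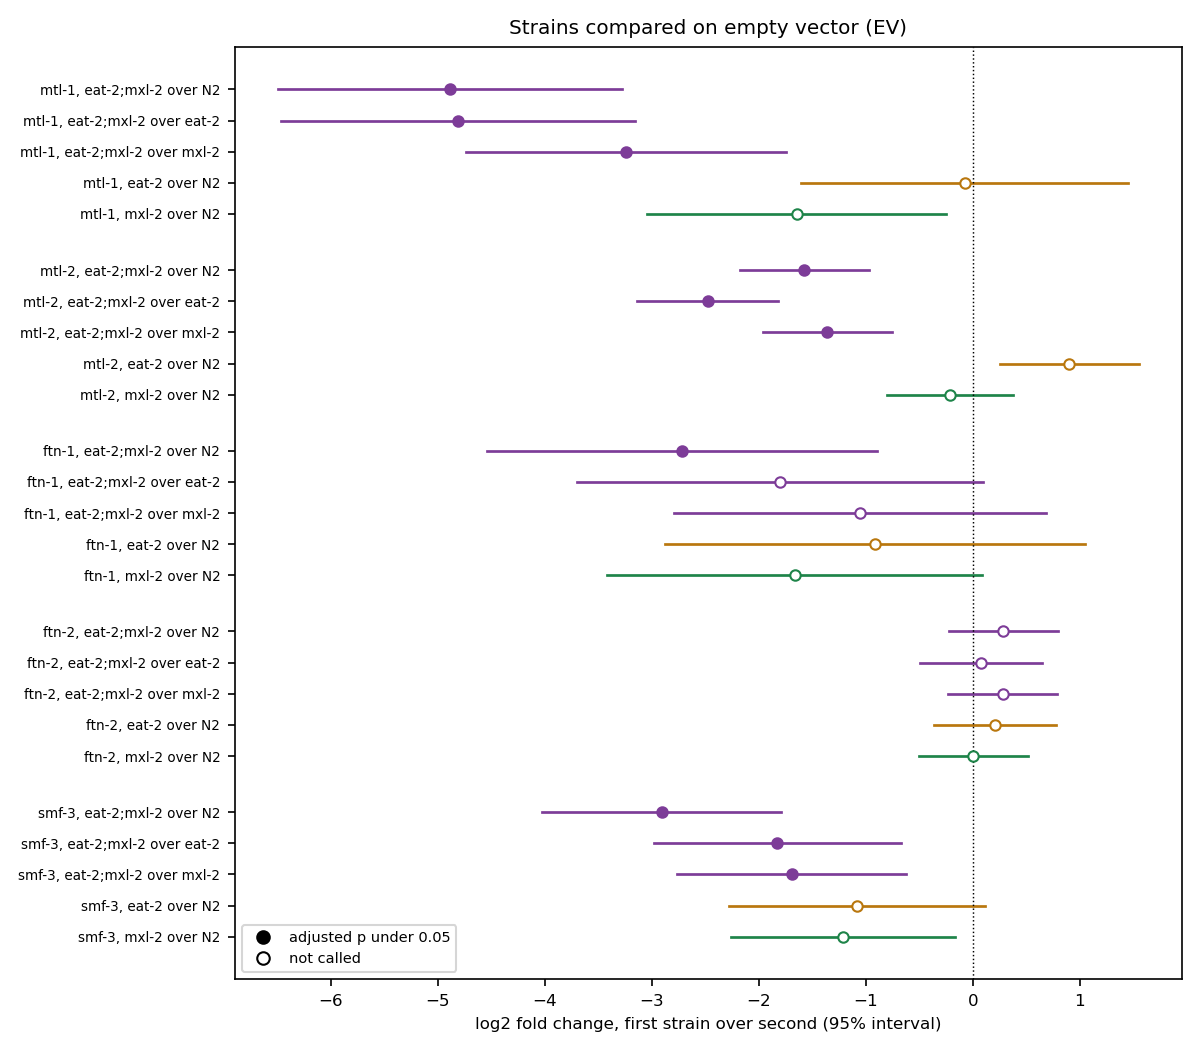
Log2 fold change of each gene between strains on EV with 95% intervals from the edgeR fit; filled points passed an adjusted p under 0.05. All calls are below 0 and belong to the double mutant as labelled (purple); ftn-2 lies within 0.29 of 0 in all 5 comparisons.

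On daf-16 RNAi the strains differed in another way. In mxl-2 over N2, mtl-2 and ftn-1 were called lower, where 6.25% of all genes were called and 2.78% called lower. mtl-2 had 102, 116 and 95.5 CPM in mxl-2, against 194, 233 and 282 CPM in N2, without overlap, and the log2 fold change was -1.18 ± 0.29 (edgeR adjusted p = 0.0185). ftn-1 had 0.158, 1.46 and 0.281 CPM in mxl-2, against 17.4, 10.2 and 15.3 CPM in N2, a log2 fold change of -4.49 ± 0.99 (edgeR adjusted p = 0.0116). Without the double mutant's libraries neither passed (edgeR adjusted p = 0.0879 for mtl-2 and 0.0604 for ftn-1), and leaving out mxl-2 replicate 1 or 3 on daf-16 RNAi also ended both calls. For N2, leaving out replicate 2 or 3 on daf-16 RNAi ended the call of mtl-2.

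In the double mutant over mxl-2 on daf-16 RNAi, mtl-2, ftn-1 and ftn-2 were called higher, where 35.9% of all genes were called and 18.7% called higher, so that calls were common in this comparison. mtl-2 had 210, 235.1 and 215 CPM in the double mutant, against 102, 116 and 95.5 CPM in mxl-2 (log2 fold change 1.08 ± 0.29; edgeR adjusted p = 0.00705). ftn-1 averaged 4.56 ± 1.27 CPM in the double mutant and 0.632 ± 0.718 CPM in mxl-2 (SD, n = 3 each; 2.84 ± 0.93; edgeR adjusted p = 0.0222). ftn-2 had 525, 530 and 516 CPM in the double mutant, against 285, 347 and 279 CPM in mxl-2, its only call in any comparison of 2 groups as labelled (0.78 ± 0.25; edgeR adjusted p = 0.0190). The calls of ftn-1 and ftn-2 were lost without mxl-2 replicate 1 or 3, or without double-mutant replicate 1, on daf-16 RNAi. mtl-1 had 7.41, 13.9 and 6.15 CPM in the double mutant, against 0.788, 7.01 and 0.522 CPM in mxl-2, and its 1.72 ± 0.71 just missed the threshold (edgeR adjusted p = 0.0585). It was called by DESeq2 (0.0368), by limma on log2(TPM + 1) (0.0146), with the sperm covariate (0.0298) and without mxl-2 replicate 2 on daf-16 RNAi (3.79; edgeR adjusted p = 0.000412). The double mutant and N2 had nearly the same mtl-2 level on daf-16 RNAi, at 220 ± 13.2 and 236 ± 44.2 CPM (SD, n = 3 each), and the log2 fold change was -0.10 ± 0.29 (95% interval -0.69 to 0.49).

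In the remaining 3 strain comparisons on daf-16 RNAi the edgeR test called 0 of the 5 genes, with 2 at an unadjusted p under 0.05 in all 3 together, 1 by DESeq2 and 0 by limma. The share of all genes called was 0.726% in eat-2 over N2, 20.1% in the double mutant over N2 and 2.3% in the double mutant over eat-2. On pha-4 RNAi it called 0 of the 5 genes in all 5 strain comparisons, with 4 at an unadjusted p under 0.05 in all and 0 by DESeq2 or limma. There the share of all genes called was 0.0115% in eat-2 and in mxl-2 over N2, 1.97% in the double mutant over N2, 4.12% over eat-2 and 4.11% over mxl-2. With exchanged labels 2 of the 5 genes were called lower in the double mutant over N2, 3 over eat-2 and 2 over mxl-2. Of all genes, 3.36%, 5.21% and 4.82% were called lower in these comparisons with exchanged labels. mtl-1 had 89.7, 55.4 and 43.8 CPM in the double mutant labelled pha-4 RNAi, 58.1 and 71.0 CPM in eat-2, 105, 36.2 and 161 CPM in mxl-2, and 13.8, 39.4 and 38.0 CPM in N2. For mtl-1, the double mutant on this label therefore no longer stood below the other strains. This did not hold for the other genes. mtl-2 still lay below N2 and eat-2 without overlap, though it overlapped with mxl-2. smf-3, ftn-1 and ftn-2 had their lowest mean CPM in the double mutant, and each overlapped with at least 1 other strain. None of these differences was called as labelled.

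Ordered by mean TPM, neighbouring groups mostly overlapped. For mtl-1 the order began with eat-2 on EV (972 TPM) and N2 on EV (943 TPM), and ended with N2 and mxl-2 on daf-16 RNAi (19.6 and 9.13 TPM). Of its 11 neighbouring pairs, 9 overlapped, and the gaps lay between N2 on EV and mxl-2 on pha-4 RNAi and between eat-2 and N2 on pha-4 RNAi. For mtl-2 the order ran from eat-2 on daf-16 RNAi (1282 TPM) to the double mutant labelled EV (241 TPM), with 9 of 11 overlapping. For ftn-1 it ran from mxl-2 on pha-4 RNAi (48.2 TPM) to mxl-2 on daf-16 RNAi (1.05 TPM), where the last step was the only gap. For smf-3 it ran from N2 on EV (8.66 TPM) to the double mutant labelled EV (1.4 TPM), with the only gap below N2 on daf-16 RNAi (7.59 TPM). All neighbours overlapped for ftn-2, which ran from 814 TPM in the double mutant on daf-16 RNAi to 430 TPM in mxl-2 on pha-4 RNAi.

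The pairs of paralogs were not in a fixed ratio. ftn-2 exceeded ftn-1 in TPM in all 33 libraries, by 4.24-fold to 2204-fold (median 25.9-fold). For ftn-2 over ftn-1 the double mutant had medians of 99.8 on daf-16 RNAi, 14.5 in libraries labelled pha-4 RNAi and 87.3 in those labelled EV, while in N2 the medians were 25.9, 17.5 and 11.3. mtl-1 exceeded mtl-2 in 6 of the 33 libraries, among them all 3 of N2 on EV, where the ratio was 1.21 to 1.87. On daf-16 RNAi mtl-1 was 0.00412 to 0.0495 of mtl-2 in 11 libraries of 4 strains, against 0.0700 to 2.01 in the 22 libraries on pha-4 RNAi or EV, so that the ratio did not overlap between them. A low ratio does not mean that mtl-1 fell in each strain. In the double mutant, mtl-1 averaged 9.16 CPM on daf-16 RNAi and 10.1 CPM in libraries labelled EV. There mtl-2 averaged 220 and 50.9 CPM in the same groups. Summed over both metallothioneins, the double mutant had 842 to 953 TPM on daf-16 RNAi and 243 to 305 TPM in the libraries labelled EV, while N2 had 829 to 1119 TPM on daf-16 RNAi and 1195 to 2011 TPM on EV. The sum thus lay higher on daf-16 RNAi in the double mutant and lower in N2, without overlap in either. Both the ratio and the sum were looked at after the values were seen, and no test was made of them.

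**Figure D4:**
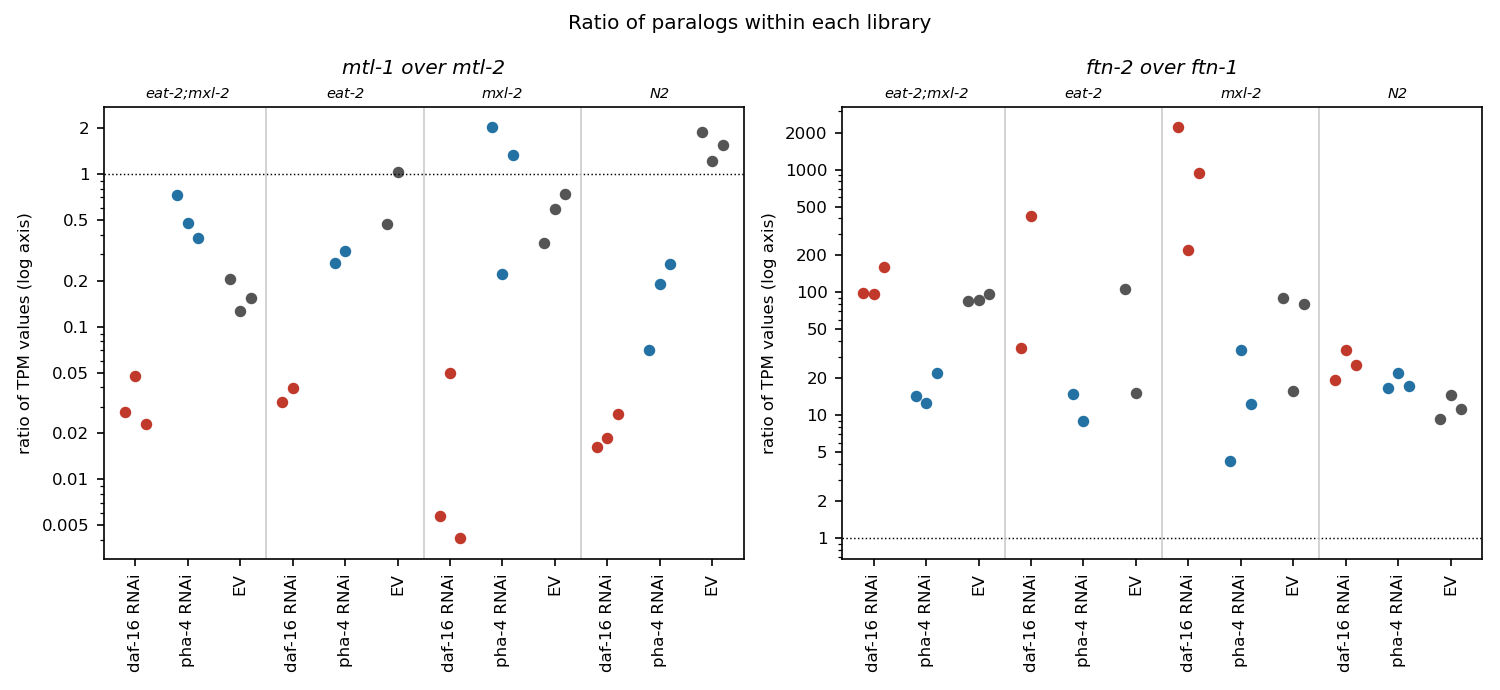
TPM of mtl-1 over mtl-2 and of ftn-2 over ftn-1 within each library (log axes), by strain and bacteria; the dotted line marks equal TPM. The 11 libraries on daf-16 RNAi have mtl-1 at no more than 0.0495 of mtl-2, below the 22 others, and ftn-2 exceeds ftn-1 in every library. In the double mutant, mtl-1 overlaps between daf-16 RNAi and libraries labelled EV, and mtl-2 is higher on daf-16 RNAi.

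Over the 33 libraries, log2 CPM of mtl-1 and ftn-1 went together (Pearson's r = 0.71, Spearman's rho = 0.67), also after group means were taken out (r = 0.62). mtl-1 and mtl-2 did not (r = 0.08, rho = 0.00067; within groups r = 0.21). ftn-1 and smf-3 had r = 0.50 and rho = 0.60, and r = 0.74 within groups, and ftn-1 and ftn-2 had r = -0.01, and 0.45 within groups. These are descriptions over libraries that share group, batch and depth, and carry no p-value. Within groups, and here on log2(TPM + 1), the summed oocyte markers had r = -0.74 with ftn-2, -0.72 with smf-3, -0.71 with ftn-1, -0.62 with mtl-2 and -0.35 with mtl-1. The summed intestinal markers had r = -0.54 with mtl-2, -0.52 with ftn-1, -0.50 with mtl-1, -0.28 with smf-3 and -0.18 with ftn-2. Pharyngeal and sperm sums ran from r = -0.31 (sperm with mtl-1) to 0.48 (pharynx with smf-3). The part of such shifts in tissue make-up in the results above was not tested.

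**Figure D5:**
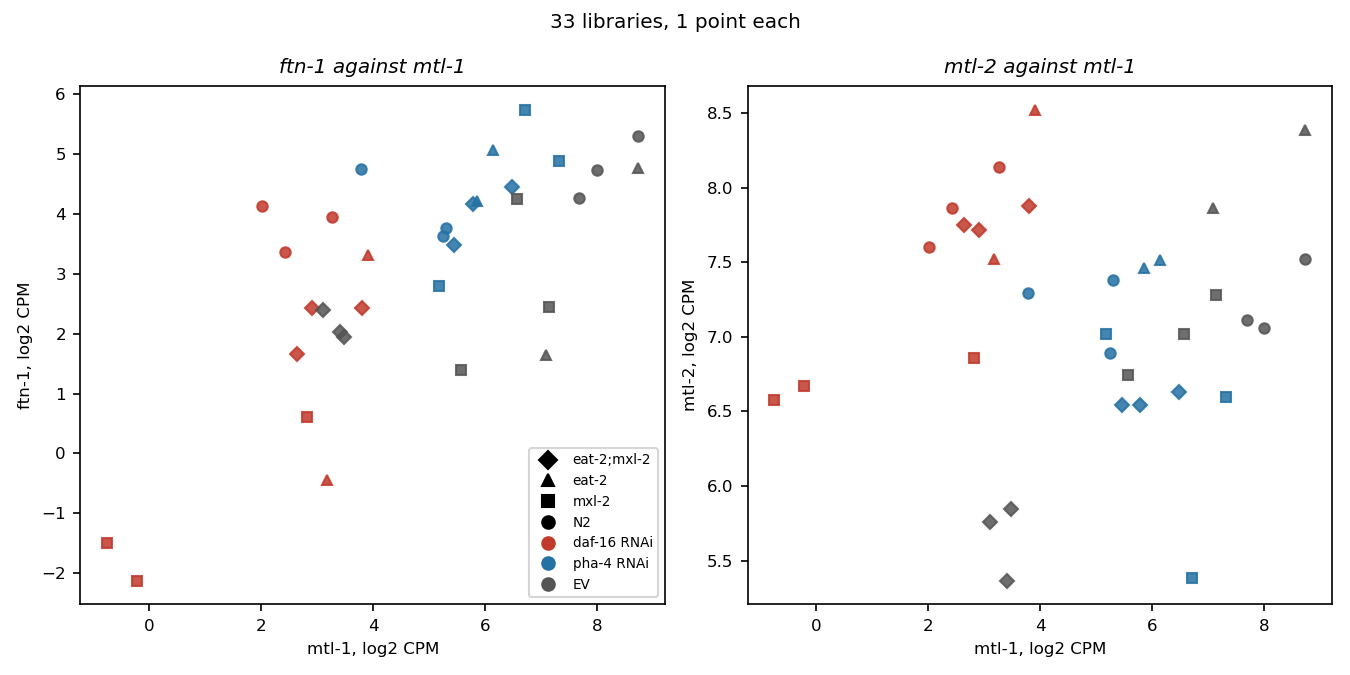
Log2 CPM of ftn-1 and of mtl-2 against that of mtl-1, 1 point per library; shapes are strains and colours are bacteria. ftn-1 rises with mtl-1 (r = 0.71) with mxl-2 on daf-16 RNAi at the bottom left, and mtl-2 does not (r = 0.08).

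The named genes most like each member over the 33 libraries, among tested genes averaging at least 5 CPM, were found by Pearson's r of log2 CPM. For mtl-1 they were hil-1 (0.83), ttr-5 (0.78) and nnt-1 (0.76). For ftn-1 they were hil-1 (0.86), clec-146 (0.83) and scl-2 (0.80). For mtl-2 they were emc-6 (0.89), vrp-1 (0.87) and gut-2 (0.86), for ftn-2 nduf-5 (0.88), cyn-3 (0.82) and nduf-6 (0.82), and for smf-3 nhr-90, ceeh-2 and pmt-1 (each 0.91). hil-1, a linker histone gene, thus headed the lists of both mtl-1 and ftn-1.

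The other readouts of DAF-16 were set beside mtl-1. The list was chosen with earlier results of these data known. Its genes hil-1 and nnt-1 were also among the 3 most like mtl-1 over the same libraries. The list therefore gives no independent check of mtl-1. Of 10 tested, 1 was lower on daf-16 RNAi in N2, nnt-1 (log2 fold change -2.74; edgeR adjusted p = 0.00972), and 3 in mxl-2, with dod-3 first (-3.51; edgeR adjusted p = 0.00908). By edgeR 0 of 10 were called in eat-2, with a list median of -1.98. In the double mutant 2 were lower, icl-1 first (-1.47; edgeR adjusted p = 0.0186). The share of all genes called was 0.248% in N2, 0.127% in mxl-2, 0.0115% in eat-2 and 9.55% in the double mutant. Among libraries labelled EV, 7 of the 10 were lower in the double mutant over N2, with icl-1, the glyoxylate-cycle enzyme, at 464 ± 70.6 CPM in the double mutant and 2720.5 ± 36.5 CPM in N2 (SD, n = 3 each; -2.55; edgeR adjusted p = 0.000153). The median log2 fold change of the list there was -2.51, against -0.05 over all genes tested, of which 7.15% were called lower. For this list and those below, calls in the double mutant are given as labelled. Their values with exchanged labels were not followed, so how far these calls rest on the labels was not tested.

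Of 7 other iron genes tested, 1 was lower in the double mutant over N2 among libraries labelled EV, mfn-1, the mitochondrial iron carrier mitoferrin (32.0 ± 5.28 CPM in the double mutant and 70.3 ± 3.77 CPM in N2; SD, n = 3 each; log2 fold change -1.13; edgeR adjusted p = 0.0103). Over mxl-2 on EV 2 were lower, aco-1, the aconitase related to iron regulatory protein, first (-1.63; edgeR adjusted p = 0.0138), and over eat-2 on EV 2 were lower, iscu-1 first (-0.86; edgeR adjusted p = 0.0144). Over N2, mxl-2 and eat-2, 7.15%, 4.25% and 8.89% of all genes were called lower. Whether counts of 1 or 2 in 7 exceed these shares was not tested. Of 8 heme genes, 3 were lower in the double mutant over N2, with the heme transporter gene hrg-1 first (-1.93; edgeR adjusted p = 0.0110). Of 8 genes of the hypoxia pathway 3 were lower there, with egl-9, the prolyl hydroxylase that marks HIF-1 for breakdown, first (-1.45; edgeR adjusted p = 0.000922), and hif-1 itself at 93.3 ± 12.8 CPM in the double mutant and 199 ± 7.09 CPM in N2 (SD, n = 3 each; -1.09; edgeR adjusted p = 0.0315).

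Of 7 other heavy-metal genes tested, 3 were called higher in the double mutant over N2 among libraries labelled EV, where 4.96% of all genes were called higher, and the remaining 4 were not called. cdr-4, a cadmium-responsive gene, averaged 112 ± 21.8 CPM in the double mutant and 15.04 ± 3.72 CPM in N2 (SD, n = 3 each), higher by 2.89 on the log2 scale (edgeR adjusted p = 0.000374). It was also higher over eat-2 (2.32; edgeR adjusted p = 0.00846) and over mxl-2 (2.35; edgeR adjusted p = 0.00267). Of 14 zinc genes, 2 were lower and 1 higher over N2, where 12.1% of all genes were called. The lower one with the smallest p was hizr-1, the nuclear receptor that senses zinc and activates zinc-storage genes, at 1.15 ± 0.163 CPM in the double mutant and 3.66 ± 1.22 CPM in N2 (SD, n = 3 each; -1.67; edgeR adjusted p = 0.00220), and the higher one was the zinc transporter gene zipt-2.4 (0.75; edgeR adjusted p = 0.0132). hizr-1 was called higher on daf-16 RNAi in the double mutant (1.68; edgeR adjusted p = 0.00486), the comparison in which mtl-2 rose. Of 3 copper genes, 1 was lower over N2, the copper chaperone gene cuc-1 (-1.18; edgeR adjusted p = 0.0155). Of 10 regulators tested, 6 were lower there, where 7.15% of all genes were called lower. First was mxl-2 (-4.29), the gene mutated in this strain. The 6 also include pha-4, whose transcript ran against the labels, and hif-1 and hizr-1, already named above. Of the tissue markers, 2 of 10 intestinal genes were higher and 2 lower, and none of 10 oocyte, 5 pharyngeal and 31 sperm genes was called.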

How the data were processed

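Whole-animal poly(A) RNA was sequenced from stranded libraries, per the labels' protocols. The authors deposited 1 table of raw read counts per gene and 1 of TPM, each with 17907 genes and 33 libraries. FastQC, Trimmomatic, STAR 2.4.2a, RSEM 1.2.23, featureCounts 1.4.6-p5 and the build WBcel235 are named in the submitters' processing notes, without roles; which annotation was used, and whether counting was stranded, is not given in the sources used here. Every gene's highest count was at least 10, and 1.24% to 9.78% of each library's TPM lay outside the deposited table.

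Counts were tested with edgeR 4.0.16 (R 4.3.3): TMM factors (0.782 to 1.56), filterByExpr, 1 mean per group over all 33 libraries, quasi-likelihood tests in 23 comparisons of 2 groups and 7 differences of responses, Benjamini-Hochberg adjustment over the 17354 genes of each, calls at an adjusted p under 0.05. CPM values are divided by TMM factors; log2 CPM used a prior count of 2. The procedure was run on simulated counts without outlying libraries. Comparisons between groups of 2 libraries each, as within eat-2, were not simulated, so that this run does not cover those cases. DESeq2 1.42.0, limma 3.58.1 on log2(TPM + 1) and log2(TPM + 0.1), RLE factors, no filter, a replicate block, a sperm covariate and left-out libraries were alternatives. Crossed numbers in eat-2 and exchanged EV and pha-4 RNAi labels of the double mutant were added after seeing the data. No 2 libraries of a group agreed within sampling noise (chi-square per degree of freedom 9.95 to 630).

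The 5 genes, the lists (iron, heme, heavy metal, zinc, copper, hypoxia, readouts and regulators of DAF-16 or metal genes, and markers of intestine, oocytes, pharynx and sperm) and the rule for named genes (the called list gene with the smallest p in each direction, and the 3 genes most like each member) were chosen with earlier results of these data known. hif-1, and cdr-4 beyond its first comparison, were named after their values were seen. smf-2, hrg-5, cdr-3, cdr-5, numr-1, numr-2 and chca-1 were not analysed here, and fpn-1.3 was too low to test. Coordinates are from Ensembl release 115, in which all gene identifiers were found.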

Additional observations from a re-analysis of the deposited data

Results flagged for a closer look

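The response of mtl-1 to daf-16 RNAi differed between the double mutant and N2 by 5.43 on the log2 scale, by the edgeR test of the difference (adjusted p = 0.0107): it was -0.14 in the double mutant and -5.56 in N2. With the double mutant's libraries labelled EV and pha-4 RNAi in each other's place it was 2.78 (edgeR adjusted p = 0.139). Its response to pha-4 RNAi differed between them by 5.93 (edgeR adjusted p = 0.00352), with 2.65 in the double mutant and -3.29 in N2, where the pha-4 transcript ran against the labels of the double mutant, and it was 0.64 with these labels exchanged (edgeR adjusted p = 0.722). The effect of eat-2 on mtl-2 on EV differed with mxl-2 lost or present by -2.26 (edgeR adjusted p = 0.00816), with -1.36 where mxl-2 was lost and 0.90 where it was present, and by -1.36 with exchanged labels (edgeR adjusted p = 0.200). None of the 3 differences thus passed with exchanged labels. Groups of 2 or 3 libraries are too small for a test of outlying samples.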

How the results depend on the processing

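Of 22 calls of the 5 genes, 5 held under every alternative and 17 were lost under at least 1, and none of the 22 changed direction. The 5 were mtl-1 on daf-16 RNAi in N2 (log2 fold change -5.95 to -5.20), mtl-2 on daf-16 RNAi in the double mutant (1.21 to 2.15), smf-3 in the double mutant over N2 on EV (-3.09 to -1.86), mtl-2 over eat-2 on EV (-2.76 to -1.58) and mtl-2 in the double mutant over mxl-2 on daf-16 RNAi (0.83 to 1.16). Exchanging the double mutant's EV and pha-4 RNAi labels, an alternative added after seeing the data, ended 11 calls, and 7 of those were lost under no other alternative: mtl-1 in the double mutant over N2, eat-2 and mxl-2 and mtl-2 over N2 and mxl-2 on EV, and the differences of 5.93 and -2.26. With it, 3 of the 5 genes were called on daf-16 RNAi in the double mutant, 1 over N2, 1 over eat-2 and 0 over mxl-2 on EV, 2, 3 and 2 over the same strains on pha-4 RNAi, and 0 in each of the 3 differences that had held calls. It also turned the sign of uncalled values: ftn-1 was -1.89 on daf-16 RNAi in the double mutant, 0.17 over eat-2 and 0.92 over mxl-2, ftn-2 was -0.27 over N2, and the pha-4 RNAi differences were -0.86 for mtl-2 and -1.28 for ftn-1. limma on log2(TPM + 1) and log2(TPM + 0.1) lost ftn-1 over N2 (adjusted p = 0.0576 and 0.0946), smf-3 over eat-2 (0.156 and 0.138) and smf-3 over mxl-2 (0.154 and 0.123) in the double mutant on EV, and without the filter ftn-1 over N2 had an edgeR adjusted p of 0.0502. The replicate numbers did not pair the libraries (correlations of same-numbered libraries -0.92 to 0.75), and a replicate block took 3 calls: mtl-1 on pha-4 RNAi in N2 (edgeR adjusted p = 0.0546), which left 0 of 5 genes called there, ftn-1 in the double mutant over N2 (0.0536) and smf-3 over mxl-2 (0.0595). In eat-2, crossing the numbers, tried after seeing the data, gave 180 called genes on daf-16 RNAi, 2 of the 5 among them, against 0 with the numbers as given and 0 without a block in a fit to those 4 libraries. Leaving out the double mutant's libraries left 0 of 5 genes called on daf-16 RNAi in mxl-2, on pha-4 RNAi in N2, and in mxl-2 over N2 on daf-16 RNAi, where all libraries gave 1, 1 and 2. Fits to only the libraries compared called 0 on daf-16 RNAi in mxl-2, 2 on daf-16 RNAi and 5 on pha-4 RNAi in the double mutant, 1 in mxl-2 over N2, 2 in the double mutant over N2 and 1 over mxl-2 on daf-16 RNAi, 1 over N2 and 1 over eat-2 on pha-4 RNAi, and 3 and 4 in the differences between double mutant and N2 for daf-16 and pha-4 RNAi. DESeq2 called 2 on daf-16 RNAi in mxl-2, 1 in eat-2, 1 on pha-4 RNAi in the double mutant, 1 in eat-2 over N2 on EV, 1 in the double mutant over N2 on daf-16 RNAi, and 2 in the difference of the eat-2 effect. limma on log2(TPM + 1) called 1 on pha-4 RNAi in the double mutant, with or without the filter. With 1 library left out, the counts were 0 to 2 on daf-16 RNAi in mxl-2, 0 to 0 on pha-4 RNAi in N2, 0 to 4 in mxl-2 over N2 and 1 to 4 in the double mutant over mxl-2 on daf-16 RNAi, and 0 to 1 in the daf-16 RNAi difference between double mutant and N2. Values near 0 or with few libraries changed sign without a call. The log2 fold change of ftn-1 on daf-16 RNAi in the double mutant, 0.08, was -0.058 with RLE factors, -0.057 with DESeq2, -0.0084 without the filter, -0.19 with limma on log2(TPM + 1), filtered or not, -0.22 with log2(TPM + 0.1), and -0.10 to 0.30 with 1 library left out. With 1 left out, ranges across 0 were -4.59 to 0.79 for ftn-1 on daf-16 RNAi in eat-2, -0.57 to 0.084 for mtl-1 on daf-16 RNAi in the double mutant, -0.43 to 0.49 for mtl-1 on pha-4 RNAi in mxl-2, and on EV -1.03 to 0.63 for mtl-1 and -3.12 to 0.031 for ftn-1 in eat-2 over N2, -2.69 to 0.41 for ftn-1 in the double mutant over eat-2 and -1.49 to 0.13 over mxl-2. mtl-1 in eat-2 over N2 was 0.010 without the filter. The difference of mtl-1 between mxl-2 and N2 on daf-16 RNAi was -0.29 with log2(TPM + 0.1) and -1.61 to 0.96 with 1 left out. The number of genes called moved far more than the members did. Over all alternatives it was 11 to 339 on daf-16 RNAi in N2 (43 as reported), 0 to 1118 in mxl-2 (22), 0 to 13 in eat-2 (2) and 265 to 6406 in the double mutant (1658), and on pha-4 RNAi 5 to 552 in N2 (56), 0 to 603 in mxl-2 (154), 0 to 1117 in eat-2 (203) and 62 to 7309 in the double mutant (259). On EV it was 6 to 1947 in eat-2 (137) and 3 to 175 in mxl-2 (5) over N2, and 1063 to 8442 in the double mutant over N2 (2101), 323 to 4154 over eat-2 (3198) and 401 to 3613 over mxl-2 (1364). On daf-16 RNAi it was 121 to 2686 in mxl-2 over N2 (1084) and 2766 to 7574 in the double mutant over mxl-2 (6230). In the differences it was 0 to 4416 for daf-16 RNAi (113), 86 to 3054 for pha-4 RNAi (275) and 71 to 1083 for eat-2 with mxl-2 (221). Where a fit left 1 library in a group, that library was taken to vary like the others. The cause of these moves was not tested. Counts of 4 to 36 reads limit ftn-1 in mxl-2 on daf-16 RNAi.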
